A study of Mus musculus with 8 samples.

Results

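Cell cycle genes were read in 8 HCA-1 tumors, as 41 genes chosen by name and found in the deposited normalized table, among 55536 genes counted. They comprise 14 genes of DNA replication, 19 genes of mitosis and 8 cyclins and regulators of the cycle. HCA-1 is a mouse hepatocellular carcinoma line, and its cells had been injected under the capsule of the liver of male C3H mice, for which the labels give an age of 6 to 8 weeks. All 8 mice carried such a tumor, and no transgene or deletion is named. On day 17 the mice of the IMQNP group received a single intravenous dose of PFSUV-IMQ at 4 mg/kg, which is imiquimod, an agonist of the RNA sensor TLR7, carried in phospholipid-free small unilamellar vesicles. The Control mice received saline, a dose of 0 mg/kg. Tumors were taken 3 h later, 4 in each group (Control 1, 3, 4 and 5, and IMQNP 1, 2, 3 and 4), and mRNA libraries made from their total RNA were sequenced. No empty-vesicle control was among these samples, so the vesicle and the drug it carried cannot be told apart. The question put to the data was whether transcripts of replication and of mitosis differed between the groups, and whether the mitosis genes moved apart from the replication genes.

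A dividing cell copies its DNA in S phase and separates the copies in mitosis, and the genes for these steps are transcribed in waves. D-type cyclins join growth signals to the cycle in G1 by activating CDK4 and CDK6, which inactivate the retinoblastoma protein and release E2F factors. E2F then drives genes that license and fire replication origins (Cdc6, Cdt1, the Mcm helicase, Gins2), clamp the polymerase (Pcna) and make nucleotides (Rrm1, Rrm2, Tyms, Tk1). A later wave, driven by the MuvB complex with B-Myb and FOXM1 at CHR elements, and by NF-Y at CCAAT boxes, supplies Cdk1 and the B cyclins that start mitosis, the kinases, motors and checkpoint proteins that carry it out, and Cdc20, which ends it. Because most resting cells lack these transcripts, Mki67 and Top2a are used as markers of proliferation.

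Depth ranged from 16883911 to 27687756 counted reads among the Control tumors, and for IMQNP it ran from 17008151 to 18527613, and a count of 0 in a tumor would allow up to 3 counts. The proliferation markers were well expressed in all 8 tumors. Hepatocyte genes were read as well, with a summed level of 4916 to 38638 CPM (counts after scaling for depth) over 12 genes among the Control tumors, against 7607 to 42445 CPM with IMQNP, the 2 highest being Control 4 and IMQNP 2. Among markers of fetal liver and hepatocellular carcinoma, Afp, which codes for alpha-fetoprotein, was at 6.08 CPM or below in every tumor, and Igf2 and Dlk1 were too low to be tested. The treatment left a clear mark in these libraries, since all 9 listed interferon-stimulated genes were called higher by edgeR, with a median log2 fold change of 5.03.

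No cell cycle member passed the test between the groups. The threshold was an adjusted p of 0.05 in edgeR's quasi-likelihood fit over 15998 genes (genes past it are termed called), and all 41 members passed its filter on low counts. None of them was called higher or lower, with adjusted p values from 0.336 to 0.988, while 394 genes (2.46% of those tested) were called higher and 35 (0.219%) lower. DESeq2 also called 0 members, with a smallest adjusted p of 0.304, where it called 4.45% of all tested genes higher and 1.06% lower. At an unadjusted p under 0.05 edgeR counted 1 member higher, Cenpe, and 2 members lower, Gins2 and Tk1, against backgrounds of 8.34% and 4.65%. The groups overlapped for all 41 members, whereas the IMQNP tumors lay wholly above the Control tumors for 6.00% of tested genes and wholly below for 3.28%. A log2 fold change below 0 was found for 34 of the 41 members (82.9%), against 54.0% of all tested genes. These genes share tumors and vary together, as shown further on, so that 34 is not a count of independent observations. The 95% interval of the log2 fold change stayed within 1 on either side of 0 for 37 members, so that for these a change of more than that size was outside the interval.

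**Figure D1:**
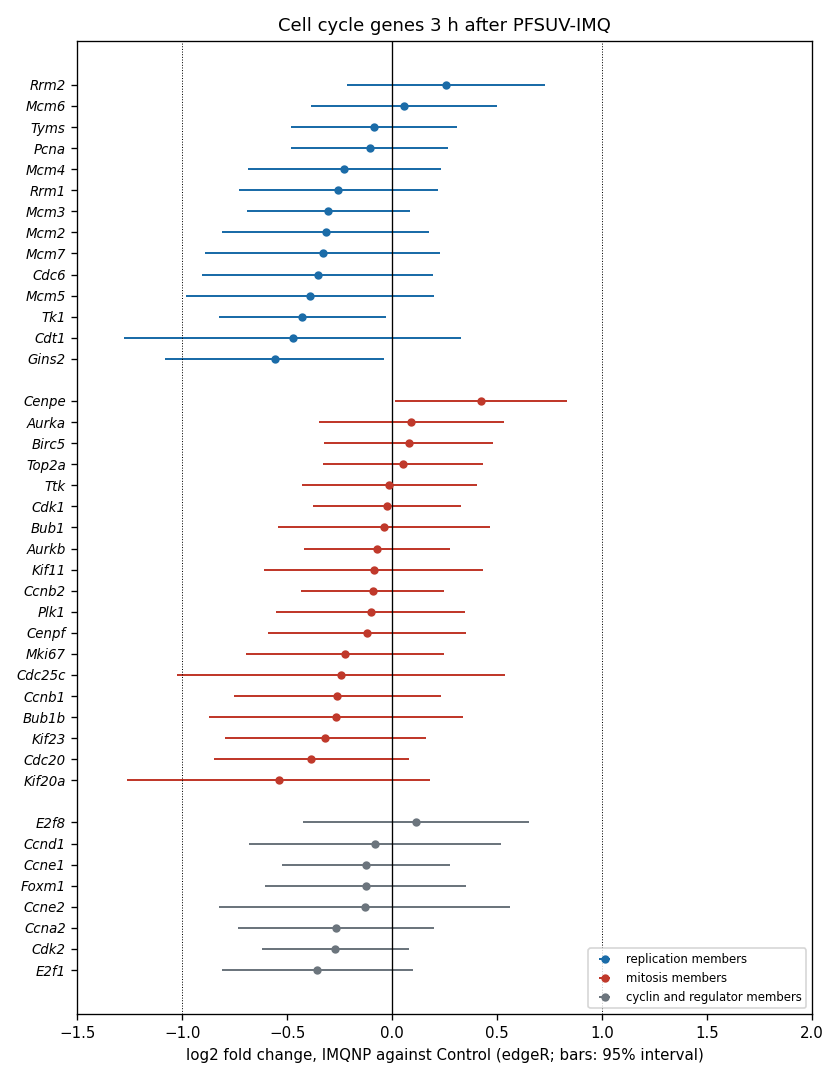
The log2 fold change of each of the 41 members, IMQNP against Control, from edgeR, with its 95% interval as a bar, grouped by role. The dotted lines mark a log2 fold change of 1 in either direction, 38 of the intervals cross 0, and those of Gins2, Tk1 and Cenpe do not, although none of these 3 passed the adjusted test.

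Mki67 (ENSMUSG00000031004, chromosome 7, 135689784 to 135716361 in GRCm38), which codes for the Ki-67 protein that coats mitotic chromosomes, was at 312, 214, 190 and 199 CPM in Control 1, 3, 4 and 5. In IMQNP 1, 2, 3 and 4 it was at 226, 155, 184 and 218 CPM. Control 1 was the highest and IMQNP 2 the lowest, and the other 6 tumors of both groups were intermingled. The group means were 229 ± 56.6 and 196 ± 32.6 CPM (SD, n = 4 each), and the log2 fold change of -0.22 had a standard error of 0.21 and an adjusted p of 0.755 in edgeR.

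Top2a (ENSMUSG00000020914, chromosome 11, 98992943 to 99024189), the topoisomerase that untangles sister chromatids, was at 238, 205, 177 and 174 CPM in the Control tumors and at 231, 172, 210 and 211 CPM in the IMQNP tumors. Both groups spanned nearly the same range. The means were 199 ± 29.8 and 206 ± 24.5 CPM (SD, n = 4 each). Its log2 fold change was 0.05, with a 95% interval of -0.33 to 0.44 and an adjusted p of 0.946 in edgeR, and the sign turned with upper-quartile scaling (-0.011).

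Among the 14 replication genes, 12 had a log2 fold change below 0 and 2 above it, with a median of -0.31 where the median of all tested genes was -0.03. None passed the adjusted test. Leaving out IMQNP 2 brought the median to -0.20, and leaving out IMQNP 1 brought it to -0.43. The lowest fold changes were those of Gins2, Cdt1, Tk1 and Mcm5, and the highest that of Rrm2.

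Gins2 (ENSMUSG00000031821), a subunit of the GINS complex that turns the loaded helicase into an active one, was at 17.1, 11.3, 13.1 and 12.9 CPM in the Control tumors and at 11.8, 8.03, 6.64 and 10.5 CPM in the IMQNP tumors. Only IMQNP 1 reached into the Control range. In edgeR its log2 fold change was -0.56, with a standard error of 0.23 and an adjusted p of 0.341. Of its annotated exon bases, 67.3% also lie in exons of Gse1, so reads of the 2 genes may be confused and the value is uncertain.

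Tk1 (ENSMUSG00000025574, chromosome 11, 117815526 to 117826092), the thymidine kinase that salvages thymidine in S phase, was at 38.4, 39.7, 55.7 and 54.5 CPM in the Control tumors and at 39.3, 32.4, 36.7 and 31.5 CPM in the IMQNP tumors. Control 4 and Control 5 stood above the other 6 tumors, and Control 1 and Control 3 lay level with IMQNP 1. The log2 fold change was -0.43 with a standard error of 0.18 and an adjusted p of 0.336 in edgeR, the smallest of the 41 members.

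The 6 Mcm genes code for the ring that unwinds DNA ahead of the polymerases. Their log2 fold changes ranged from -0.39 to 0.06, with adjusted p values of 0.543 and above in edgeR, and the mean was lower in the IMQNP group for 5 of the 6, Mcm6 being the other. Mcm3 was at 53.5, 49.5, 48.4 and 52.7 CPM in the Control tumors, a narrow range, and at 51.5, 30.5, 42.8 and 40.4 CPM in the IMQNP tumors. IMQNP 1 lay inside the Control range and the other 3 IMQNP tumors lay below it, and the log2 fold change was -0.30 (95% interval -0.69 to 0.09). Mcm5 was at 44.1, 29.6, 44.4 and 46.9 CPM in the Control tumors and at 48.0, 20.9, 28.7 and 28.0 CPM in the IMQNP tumors. In each group 1 tumor broke the pattern, since Control 3 was as low as IMQNP 3 and IMQNP 4, and IMQNP 1 was the highest of all. Its log2 fold change was -0.39 with a standard error of 0.26. Mcm2, Mcm4 and Mcm7 had log2 fold changes of -0.32, -0.23 and -0.33, and Mcm6 0.06. Mcm7 shares 34.2% of its 50-base words with the pseudogene Gm5487, and its reads may be split.

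The licensing factors Cdc6 and Cdt1, which load the Mcm ring onto origins, had log2 fold changes of -0.35 and -0.47. Relative to its level, Cdt1 varied more than any other replication gene, between 30.7 and 66.2 CPM with saline and between 14.7 and 47.1 CPM with PFSUV-IMQ, and its 95% interval ran from -1.28 to 0.33. Genes of nucleotide supply did not share a direction. Rrm2, the regulated subunit of ribonucleotide reductase, had a mean of 120 ± 23.8 CPM in the Control tumors and 144 ± 30.5 CPM in the IMQNP tumors (SD, n = 4 each). Its partner Rrm1 had means of 83.6 ± 17.3 and 70.0 ± 16.4 CPM in the same order, and Tyms, the thymidylate synthase, 19.9 ± 3.14 and 18.7 ± 2.38 CPM. The log2 fold changes were 0.26 for Rrm2, -0.26 for Rrm1 and -0.09 for Tyms, all with intervals that crossed 0. Pcna, the sliding clamp, had a log2 fold change of -0.11, and 31.8% of its 50-base words are also in the pseudogene Pcna-ps2.

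Among the 19 mitosis genes, 15 had a log2 fold change below 0 and 4 above it, with a median of -0.09, close to the -0.03 of all tested genes. None passed the adjusted test. The median came to -0.004 without Control 1 and to -0.009 without IMQNP 2, to -0.06 without IMQNP 3, and to -0.18 without IMQNP 1 and -0.14 without IMQNP 4, so that its distance from 0 rested on single tumors. The highest fold change was that of Cenpe and the lowest that of Kif20a.

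Cenpe (ENSMUSG00000045328, chromosome 3, 135212537 to 135273611), a kinesin that carries chromosomes to the middle of the spindle, was at 95.3, 74.9, 56.5 and 80.3 CPM in the Control tumors and at 108, 87.7, 114 and 103 CPM in the IMQNP tumors. Only Control 1 reached above the lowest IMQNP tumor, which was IMQNP 2. Cenpe had a log2 fold change of 0.42 with a standard error of 0.18, a 95% interval of 0.01 to 0.83 and an adjusted p of 0.366 in edgeR.

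Kif20a, a kinesin of the central spindle, was at 32.0, 21.6, 25.8 and 17.6 CPM in the Control tumors and at 26.0, 12.4, 9.48 and 18.8 CPM in the IMQNP tumors. IMQNP 2 and IMQNP 3 lay below all Control tumors, and IMQNP 1 and IMQNP 4 lay among them. Its log2 fold change of -0.54 had a wide 95% interval of -1.26 to 0.18, and 29.3% of its exon bases overlap exons of Cdc23. Kif23, another central spindle motor needed for cytokinesis, was at 61.8, 46.7, 49.6 and 40.5 CPM in the Control tumors and at 48.8, 26.8, 42.8 and 41 CPM in the IMQNP tumors, with IMQNP 2 far below the rest and a log2 fold change of -0.32.

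Cdc20, the activator that lets the anaphase-promoting complex end mitosis, was at 21.3, 22.6, 27 and 28.3 CPM in the Control tumors and at 24.1, 13.6, 21.1 and 17.1 CPM in the IMQNP tumors. Here 3 IMQNP tumors lay below the Control tumors and IMQNP 1 among them, and the log2 fold change was -0.39 with a standard error of 0.21 and an adjusted p of 0.506 in edgeR. The kinase that starts mitosis showed no such difference. Cdk1 had means of 65.1 ± 9.07 and 64.0 ± 7.19 CPM (SD, n = 4 each), and its log2 fold change of -0.03 had a 95% interval of -0.38 to 0.33. Its cyclin partners Ccnb1 and Ccnb2 had log2 fold changes of -0.26 and -0.09, and Cdc25c, the phosphatase that activates the pair, -0.24. Ccnb1 shares 42.1% of its 50-base words with the pseudogene Ccnb1-ps, which limits what its count can say.

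The other mitotic kinases, checkpoint genes and motors had log2 fold changes from -0.27 to 0.09. Aurka and Plk1, which build the spindle poles, had log2 fold changes of 0.09 and -0.10. Aurkb and Birc5 code for members of the chromosomal passenger complex that corrects faulty attachments, and had -0.07 and 0.08. The spindle checkpoint genes Bub1, Bub1b and Ttk had -0.04, -0.27 and -0.01, and the adjusted p in edgeR was 0.772 or higher for each. The spindle motor Kif11 and the kinetochore gene Cenpf had -0.09 and -0.12.

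Among the 8 cyclins and regulators, 7 had a log2 fold change below 0 and 1, E2f8, above it (0.11), with a median of -0.13. Without Control 1 the median was -0.05, and it was -0.23 without Control 5, -0.22 without IMQNP 1 and -0.23 without IMQNP 4. None passed the adjusted test. Ccnd1 (ENSMUSG00000070348, chromosome 7, 144929931 to 144939925), which codes for cyclin D1, was at 637, 455, 421 and 383 CPM in the Control tumors and at 569, 274, 411 and 538 CPM in the IMQNP tumors. IMQNP 2 was the lowest tumor and Control 1 the highest, and the rest were mixed. The means were 474 ± 113 and 448 ± 135 CPM (SD, n = 4 each), and the log2 fold change of -0.08 (95% interval -0.68 to 0.52) turned to 0.09 without Control 1 and to 0.07 without IMQNP 2. Exons of LTO1 cover 23.4% of its exon bases.

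Ccne1 codes for cyclin E1, which with CDK2 carries cells into S phase. It was nearly constant, at 7.93, 7.24, 7.39 and 7.66 CPM in the Control tumors and at 7.84, 6.78, 6.30 and 6.78 CPM in the IMQNP tumors, with a log2 fold change of -0.12. Cdk2 itself was at 25, 28.1, 32.6 and 24.5 CPM in the Control tumors and at 20.6, 21.8, 24.6 and 24.4 CPM in the IMQNP tumors. The highest IMQNP tumor only just passed the lowest Control tumor, and the log2 fold change was -0.27 (95% interval -0.62 to 0.08). Ccne2 varied from 10.4 to 28.4 CPM in the Control tumors alone and had a log2 fold change of -0.13.

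E2f1, the factor that opens the replication wave and is itself a target of it, was at 26.9, 23.3, 23.6 and 29.5 CPM in the Control tumors and at 27.6, 16.3, 20.1 and 16.5 CPM in the IMQNP tumors. IMQNP 1 lay among the Control tumors and the other 3 IMQNP tumors below them, the same division as for Mcm3. E2f1 had a log2 fold change of -0.36 with a standard error of 0.20 and an adjusted p of 0.539 in edgeR. Ccna2, whose cyclin A2 acts in S phase and G2, was at 82.2, 77.1, 78.4 and 45.6 CPM in the Control tumors and at 62.3, 50.2, 54.4 and 68.7 CPM in the IMQNP tumors. Control 5 was the lowest of all 8 tumors and the other 3 Control tumors the highest. Its log2 fold change was -0.27, and that of Foxm1, the factor of the mitotic wave, was -0.13.

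The members differed more between tumors than between groups. IMQNP 2 held the lowest of the 8 values for 27 of the 41 members and the highest for 0. It was lowest for 23.3% of all tested genes and highest for 20.2%. Of the mitosis genes 14 of 19 were lowest in it, of the replication genes 9 of 14, and of the cyclins and regulators 4 of 8. Control 1 held the highest value for 21 of the 41 members, against 12% of all tested genes. IMQNP 1 was the highest of its group for 29 members, and the matching share of all tested genes was not counted. It was the highest of all 8 tumors for 9 members, and for 9.16% of all tested genes. The mean log2 CPM of the 41 members was 5.67, 5.40, 5.41 and 5.39 in the Control tumors and 5.57, 4.92, 5.26 and 5.38 in the IMQNP tumors. Control 1 and IMQNP 1 stood at the top, IMQNP 2 stood alone at the bottom, and the remaining 5 tumors of both groups lay between 5.26 and 5.41.

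**Figure D2:**
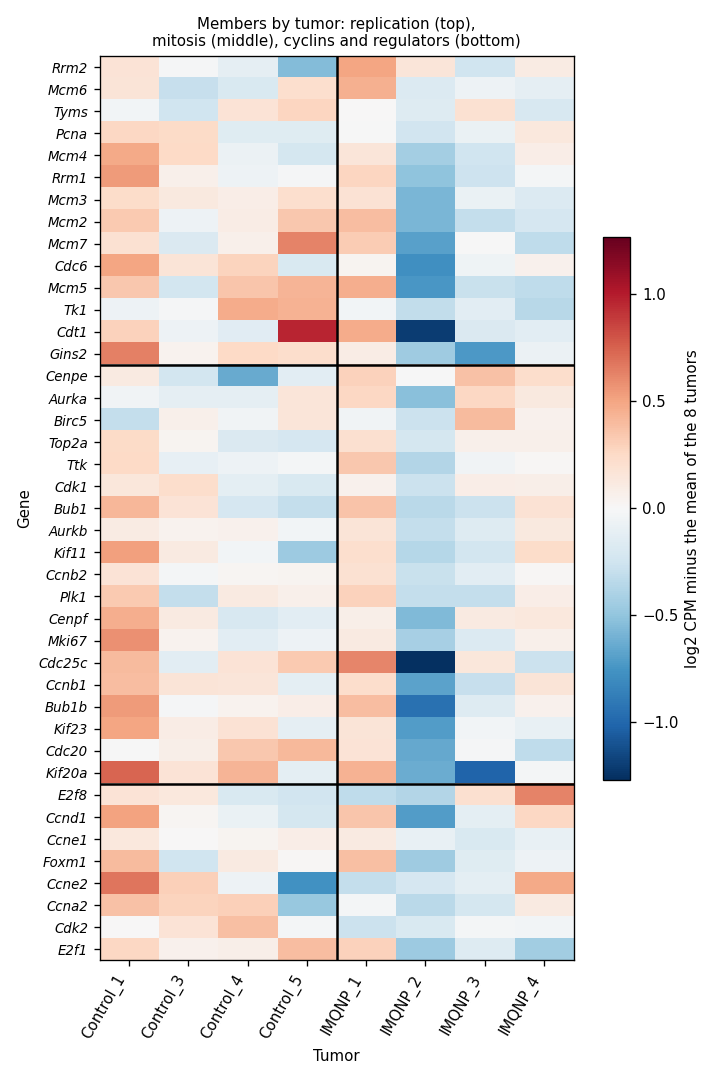
Each row is a member and each column a tumor, and the color is the log2 CPM minus the mean of that gene over the 8 tumors, with a symmetric scale. The column of IMQNP 2 is blue for most genes and that of Control 1 red, with Rrm2 (144 CPM in IMQNP 2) and Birc5 (48.4 CPM in Control 1) among the genes that depart from this.

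The highest summed levels of hepatocyte markers (42445 CPM) were also those of IMQNP 2, as were those of interferon-stimulated genes (17097 CPM, against 5584 to 8424 CPM in the other IMQNP tumors). Its mean of the leukocyte markers was the highest (5.06 log2 CPM, against 3.47 to 4.24 in the other tumors of both groups), whereas their summed level was 1924 CPM in IMQNP 2 and 1949 CPM in Control 4. Alb, the most abundant hepatocyte marker read there, was at 22736 CPM. Control 4 had a summed hepatocyte level of 38638 CPM and a mean over the 41 members of 5.41 log2 CPM. Of the 12 hepatocyte markers, 9 had a log2 fold change above 0 and 3 below, and of the 16 leukocyte markers 7 above and 9 below, none of either list passing the adjusted test of edgeR. The part of these markers in the members' levels was not tested beyond the fit with a hepatocyte term, in which edgeR called 0 members and the smallest adjusted p was 0.0705. In bulk tumors, fewer cycling cells and less of these RNAs per cell cannot be told apart.

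The members varied together from tumor to tumor within the groups. After the group means were removed, the median Pearson correlation between pairs of mitosis genes was 0.683 over the 8 tumors, that between pairs of replication genes 0.469 and that between a replication and a mitosis gene 0.554, beside a median of 0.00336 over pairs drawn from 1 in 4 of all tested genes. These correlations describe the same 8 libraries for every pair, which differ in depth and in their hepatocyte content. Bub1b followed the mean of the other mitosis genes most closely (r = 0.988), ahead of Ttk (0.962) and Ccnb2 (0.944). Mcm2 did so among the replication genes (0.971), followed by Mcm3 (0.925) and Mcm5 (0.899). Birc5 (0.002) in mitosis, and Tk1 (0.190), Tyms (0.226), Rrm2 (0.275) and Pcna (0.285) in replication, did not follow their group closely. Outside the cell cycle lists, the genes whose levels over the 8 tumors lay nearest to the mean of the mitosis genes were Rad18 (r = 0.982), Ticrr (0.974), Zfp438 (0.973), Mcph1 (0.971) and Map3k20 (0.970). For the replication genes they were Slc45a4 (0.992), Drosha (0.986), Epb41l1 (0.980), Meis1 (0.979) and Iqsec1 (0.979). Both sets were picked as the highest values among all tested genes outside the lists, over only 8 tumors and with the group means left in. High values are bound to arise from such a choice, so they do not show a link with the cycle.

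Replication and mitosis genes were then set against each other within each tumor. The mean log2 CPM of the mitosis genes minus that of the replication genes was 0.01, 0.05, -0.08 and -0.21 in the Control tumors and 0.01, 0.01, 0.11 and 0.16 in the IMQNP tumors. IMQNP 3 and IMQNP 4 stood above all Control tumors, whereas IMQNP 1 and IMQNP 2 lay among them. The difference of the group means was 0.13 log2 units toward mitosis in the IMQNP group, with within-group SDs of 0.12 in Control and 0.08 in IMQNP, and it ranged from 0.08 to 0.17 when single tumors were left out, the lowest without Control 5. No test was made of this score. The mean of the replication genes alone was 5.52 ± 0.13 in Control and 5.26 ± 0.29 in IMQNP, and that of the mitosis genes 5.46 ± 0.15 and 5.33 ± 0.30 (log2 CPM, SD, n = 4 each). Both differences (-0.26 and -0.13) were smaller in size than the SD of the IMQNP tumors, which include the low IMQNP 2. Beside the SD of the Control tumors, the difference of the replication genes was larger and that of the mitosis genes smaller.

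**Figure D3:**
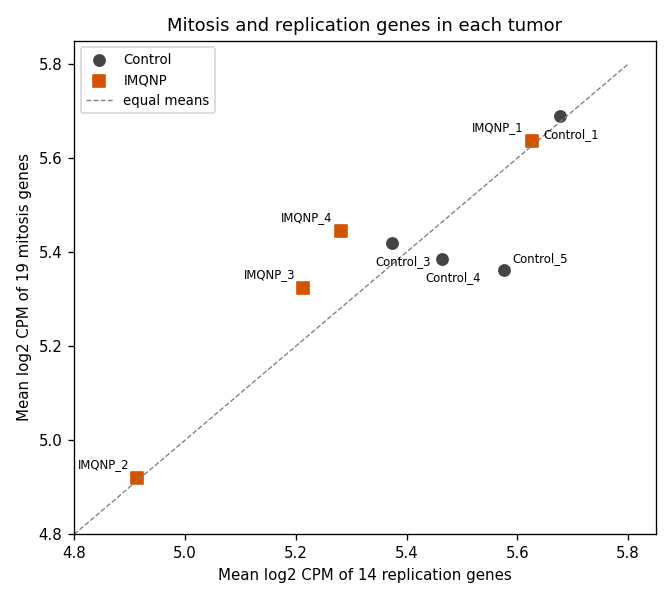
The mean log2 CPM of the 19 mitosis genes (vertical) against that of the 14 replication genes (horizontal) in each tumor, with circles for Control, squares for IMQNP and a dashed line where both means are equal. IMQNP 3 and IMQNP 4 lie farthest above the line (0.11 and 0.16) and Control 5 farthest below it (-0.21), and IMQNP 2 is lowest on both axes.

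The same division of the cycle can be read in the promoters. RefSeq promoter windows of the GRCm38.p6 build, 300 bases that end shortly after the start of the transcript, were matched for 32 of the 41 members (33 windows), and the 9 without a window were Ccnd1, Mcm4, Foxm1, Ccna2, Gins2, Kif20a, Ccne2, Aurkb and Cdc25c. The windows were searched on both strands for E2F letters (TTTCGCGC, TTTGGCGC, TTTCCCGC or TTTGGCGG), CHR letters (TTTGAA or TTCGAA) and the NF-Y letters CCAAT. E2F letters were in 6 of 13 windows of replication genes (46.2%) and 1 of 16 of mitosis genes (6.25%), that of Cdk1, against 2.37% of all 32851 windows. CHR letters were in 2 of 13 (15.4%) and 13 of 16 (81.2%), against 19.2% of all windows. CCAAT was in 9 of 13 (69.2%) and 15 of 16 (93.8%), against 37.4%. A list of other replication genes gave E2F letters in 11 of 34 windows (32.4%) and CHR letters in 7 (20.6%), and other mitosis genes in 4 (10.5%) and 29 (76.3%) of 38. A match of letters is a description and does not show that a factor was bound.

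The 250 bases before the start are shown for the marker Top2a and for Cdk1, which hold CHR and CCAAT letters (and Cdk1 E2F letters), for Mcm6 and Cdc6, which hold E2F letters (and Mcm6 CCAAT), and for Cenpe, the mitosis gene with the highest fold change, which holds CCAAT letters only. They are written 5′ to 3′ along the gene, and the capitals mark the letters found on either strand (a match on the opposite strand appears as its reverse complement, such as ATTGG for CCAAT, and in Mcm6 a pair of E2F matches overlaps). The start is that of RefSeq, and the stretch of Cdc6 lies wholly inside the gene as annotated in GENCODE M21, which begins at 98907801.
Top2a (chr11:99024190-99024439, strand -): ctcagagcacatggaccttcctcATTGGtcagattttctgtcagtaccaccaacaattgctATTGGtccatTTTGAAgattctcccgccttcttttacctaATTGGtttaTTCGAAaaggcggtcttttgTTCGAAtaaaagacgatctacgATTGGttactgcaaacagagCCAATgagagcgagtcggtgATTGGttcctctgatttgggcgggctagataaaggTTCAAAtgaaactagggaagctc
Cdk1 (chr10:69352913-69353162, strand -): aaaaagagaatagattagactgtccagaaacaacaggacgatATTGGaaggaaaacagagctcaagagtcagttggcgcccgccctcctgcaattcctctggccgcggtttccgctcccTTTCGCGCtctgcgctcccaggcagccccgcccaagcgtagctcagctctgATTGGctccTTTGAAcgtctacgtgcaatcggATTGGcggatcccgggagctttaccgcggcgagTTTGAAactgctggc
Mcm6 (chr1:128359706-128359955, strand -): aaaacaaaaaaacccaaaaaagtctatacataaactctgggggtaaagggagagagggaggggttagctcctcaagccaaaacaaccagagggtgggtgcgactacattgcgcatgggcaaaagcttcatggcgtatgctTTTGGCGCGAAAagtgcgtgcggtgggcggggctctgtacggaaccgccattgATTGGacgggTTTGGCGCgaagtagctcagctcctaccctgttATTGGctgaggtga
Cdc6 (chr11:98907901-98908150, strand +): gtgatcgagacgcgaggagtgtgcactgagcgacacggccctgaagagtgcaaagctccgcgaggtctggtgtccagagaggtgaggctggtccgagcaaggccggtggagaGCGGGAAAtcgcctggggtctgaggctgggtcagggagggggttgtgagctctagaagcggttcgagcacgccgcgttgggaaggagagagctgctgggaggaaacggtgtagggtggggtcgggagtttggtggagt
Cenpe (chr3:135212313-135212562, strand +): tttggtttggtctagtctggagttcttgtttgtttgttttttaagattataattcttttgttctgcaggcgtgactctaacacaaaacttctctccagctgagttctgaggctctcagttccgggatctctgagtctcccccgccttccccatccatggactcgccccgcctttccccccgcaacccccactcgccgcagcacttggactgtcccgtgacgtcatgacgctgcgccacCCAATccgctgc

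The CHR match nearest to the start begins 23 bases before it in Top2a and 15 bases before it in Cdk1, and Top2a has 6 CCAAT matches in all. Cenpe has a single CCAAT match, which begins 12 bases before the start. Top2a and Cdk1 had log2 fold changes near 0 (0.05 and -0.03), and Mcm6 and Cdc6, both with E2F letters, lay apart at 0.06 and -0.35.

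**Figure D4:**
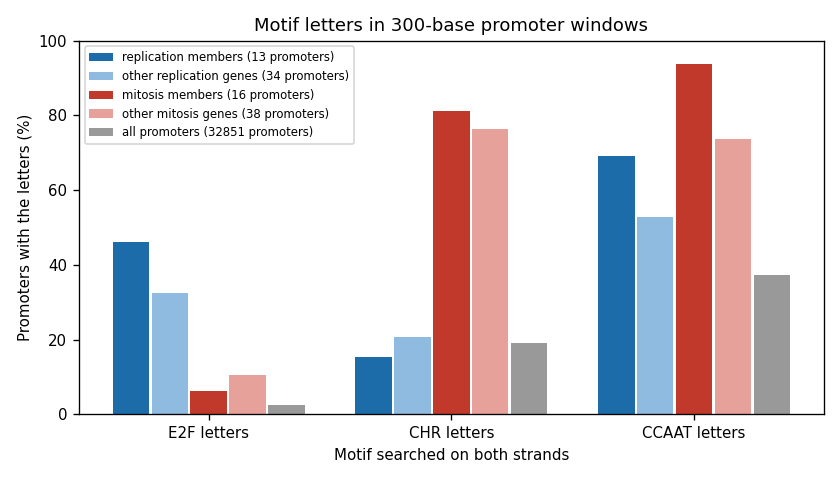
The share of promoter windows that hold each kind of letters, in percent, for the replication and mitosis members, for the other genes of each kind and for all windows. The mitosis bars stand highest for CHR letters (81.2% and 76.3%) and the replication bars for E2F letters (46.2% and 32.4%), against 19.2% and 2.37% of all windows.

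Further genes of the cycle were read from lists beside the members. For comparison, edgeR called 2.46% of all tested genes higher and 0.219% lower, and DESeq2 4.45% and 1.06%. At an unadjusted p under 0.05 edgeR counted 8.34% of all tested genes higher and 4.65% lower. Of 35 other replication genes, 11 had a log2 fold change above 0 and 24 below, with a median of -0.18, and edgeR called 0 of them (at an unadjusted p under 0.05, 2 higher, Gins1 and Mcm10, and 2 lower, Gins4 and Gmnn). DESeq2 called 1, Gins1, a second GINS subunit, at an adjusted p of 0.0251. Gins1 was at 7.05, 8.68, 8.42 and 8.80 CPM in the Control tumors and at 11.3, 13.6, 13.1 and 12 CPM in the IMQNP tumors, without overlap, and its adjusted p in edgeR was 0.127 with a log2 fold change of 0.60. Mcm10, which helps to activate the helicase, was at 23.4, 26.2, 35.7 and 23.0 CPM and at 36.5, 47.3, 43.7 and 37.0 CPM in the same order. It too did not overlap between the groups, although Control 4 came close to IMQNP 1, and its log2 fold change was 0.60 with an adjusted p of 0.165 in edgeR. In this list of 35 the IMQNP tumors lay wholly above for 3 genes and wholly below for 3. The shares of all tested genes were 6.00% and 3.28%.

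Of 42 other mitosis genes, 12 had a log2 fold change above 0 and 30 below, with a median of -0.11, and 1 was called higher, Pttg1. Of all tested genes 2.46% were called higher. Pttg1 (ENSMUSG00000020415, chromosome 11, 43420250 to 43426251) codes for securin, which holds back the separation of sister chromatids. It was at 30.5, 34.3, 26.4 and 42.6 CPM in the Control tumors and at 54.0, 61.8, 68.0 and 52.5 CPM in the IMQNP tumors. All IMQNP tumors lay above all Control tumors, as they did for 6.00% of all tested genes. Its log2 fold change was 0.82 with a standard error of 0.18 and an adjusted p of 0.0482 in edgeR. That call lay at the threshold, and of the 8 fits that left out a tumor only the one without Control 5 kept it. The call was also lost with upper-quartile scaling (adjusted p 0.0965), without a low-count filter (0.0677), with at least 10 counts in every tumor (0.0572) and with the size factors of DESeq2 (0.0502). It was kept in the DESeq2 test (adjusted p 0.00505) and in edgeR with a replicate block (0.0234).

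Of 18 other G1 cyclins, kinases and transcription factors, 9 had a log2 fold change above 0 and 9 below, and 2 were called higher, the D-type cyclins Ccnd2 and Ccnd3. Over all tested genes 2.46% were called higher and 0.219% lower. At an unadjusted p under 0.05 edgeR counted 3 of the 18 higher and 1 lower, against 8.34% and 4.65%. The IMQNP tumors lay wholly above for 3 and wholly below for 1, against 6.00% and 3.28%. Ccnd2 (ENSMUSG00000000184, chromosome 6, 127125162 to 127152193) was at 43.4, 57.0, 58.0 and 46.8 CPM in the Control tumors and at 78.9, 167, 103 and 96.3 CPM in the IMQNP tumors. The groups did not overlap, and IMQNP 2, the tumor with the lowest Ccnd1, had the highest Ccnd2. The log2 fold change was 1.12 with a standard error of 0.24 and an adjusted p of 0.0416 in edgeR, and without IMQNP 2 it was 0.84 with an adjusted p of 0.0425. The call was kept in 2 of the 8 fits that left out a tumor, those without IMQNP 1 and without IMQNP 2. It was also kept in edgeR with upper-quartile scaling (adjusted p 0.0454) and with a replicate block (0.0310), and in DESeq2 (0.00151).

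Ccnd3 (ENSMUSG00000034165, chromosome 17, 47505051 to 47599691) was at 47.3, 49.2, 57.9 and 64.7 CPM in the Control tumors and at 76.1, 115, 110 and 87.4 CPM in the IMQNP tumors, again without overlap. Its log2 fold change was 0.83 with an adjusted p of 0.0492 in edgeR, kept in 1 of the 8 fits, that without IMQNP 1, and lost with upper-quartile scaling (adjusted p 0.0830), without a low-count filter (0.0597), with at least 10 counts in every tumor (0.0546) and with a replicate block (0.0502). DESeq2 kept the call (adjusted p 0.00439). The ratio of Ccnd2 to Ccnd1 CPM within a tumor, chosen after the values were seen, was 0.0681, 0.125, 0.138 and 0.122 in the Control tumors and 0.139, 0.609, 0.252 and 0.179 in the IMQNP tumors. The ratio of Ccnd3 to Ccnd1 was 0.0742, 0.108, 0.138 and 0.169 and then 0.134, 0.421, 0.267 and 0.163. The first ratio did not overlap between the groups by a narrow margin and the second did overlap, and whether the D-type cyclins differed from each other in their change was not tested. The part of the leukocyte markers in the Ccnd2 and Ccnd3 levels was not tested. The summed level of these markers was 1251 to 1949 CPM in Control and 852 to 1924 CPM in IMQNP, with IMQNP 2 the highest of its group. Their mean was 5.06 log2 CPM in IMQNP 2, against 3.47 to 4.24 in the other tumors of both groups.

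Of 10 CDK inhibitors and pocket proteins, 4 had a log2 fold change above 0 and 6 below, and edgeR called 0 of them. At an unadjusted p under 0.05 edgeR counted 1 higher, Cdkn1a, and 2 lower, Cdkn2c and Rbl2. The shares of all tested genes at that limit were 8.34% and 4.65%. DESeq2 called 1, Cdkn1a, which codes for the CDK inhibitor p21, where it called 4.45% of all tested genes higher. Cdkn1a was at 131, 151, 105 and 176 CPM in the Control tumors and at 229, 196, 295 and 210 CPM in the IMQNP tumors, without overlap. In this list of 10 the IMQNP tumors lay wholly above for 1 and wholly below for 0, against 6.00% and 3.28%. The log2 fold change of Cdkn1a was 0.72 with a standard error of 0.21, and its adjusted p was 0.131 in edgeR and 0.0411 in DESeq2. Cdkn2c, which codes for the CDK4 and CDK6 inhibitor p18, was at 51.3, 54.0, 55.8 and 32.9 CPM and at 38.9, 28.3, 31.2 and 36.8 CPM. Control 5 lay among the IMQNP tumors, and the log2 fold change was -0.52 with an adjusted p of 0.295 in edgeR.

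Of 15 growth arrest and p53 target genes, 11 had a log2 fold change above 0 and 4 below, with a median of 0.31, and edgeR called 1, Plk3, higher, while DESeq2 called 3 higher (Plk3, Trp53inp1 and Gadd45g) and 1 lower (Sesn1). Over all tested genes edgeR called 2.46% higher, and DESeq2 4.45% higher and 1.06% lower. At an unadjusted p under 0.05 edgeR counted 5 of the 15 higher and 1 lower, against 8.34% and 4.65%. The IMQNP tumors lay wholly above for 3 and wholly below for 1, against 6.00% and 3.28%. Plk3 (ENSMUSG00000028680, chromosome 4, 117128655 to 117133963), a stress-responsive kinase of the polo family, was at 34.8, 29.7, 31.1 and 42.7 CPM in the Control tumors and at 62.1, 97.9, 67.3 and 69.2 CPM in the IMQNP tumors. Every IMQNP tumor lay well above the highest Control tumor. Plk3 had a log2 fold change of 1.10 with a standard error of 0.19 and an adjusted p of 0.0175 in edgeR. The call was kept in 4 of the 8 fits that left out a tumor and lost without Control 1, Control 3, Control 4 or IMQNP 4, with adjusted p values of up to 0.0718. Its relative among the members, Plk1, had a log2 fold change of -0.10.

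**Figure D5:**
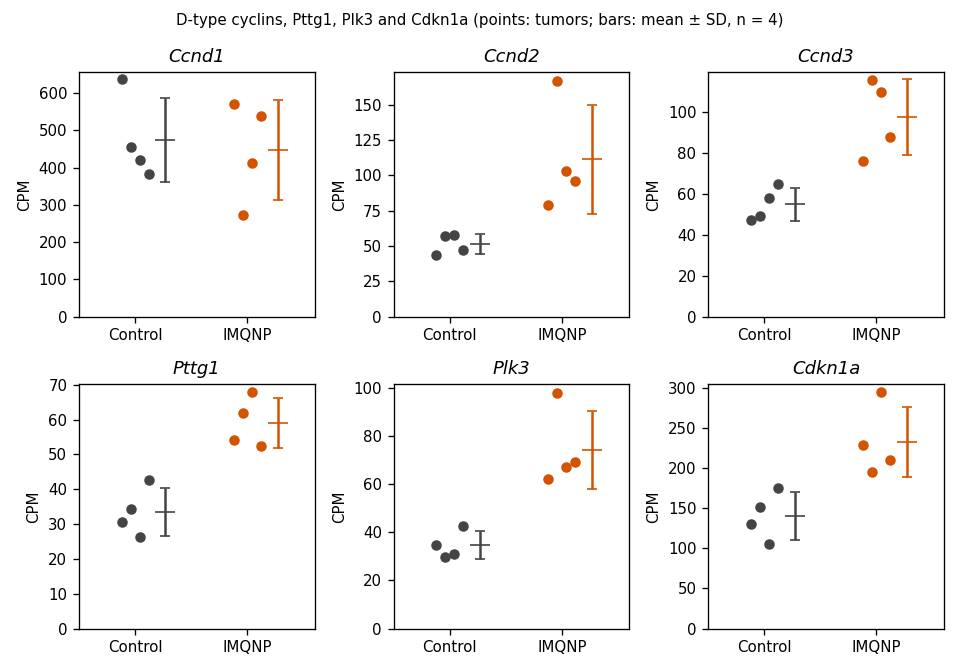
CPM of the D-type cyclins Ccnd1, Ccnd2 and Ccnd3 and of Pttg1, Plk3 and Cdkn1a, each point a tumor and each bar the mean with its SD (n = 4), with vertical axes that start at 0. The groups overlap for Ccnd1 and do not overlap for the other 5 genes, of which Cdkn1a was not called by edgeR.

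Per kilobase of exon, the order of the members' levels was much the same in both groups. Ccnd1 stood first with a mean of 101 CPM per kb in Control and 95.1 in IMQNP, followed by Pcna (56.3 and 52.2) and Rrm2 (43.4 and 51.8). Mcm6, Mki67, Top2a and Ccnb2 came next, at 21.6 to 25 CPM per kb in Control, a span narrower than the spread of Mki67 between tumors. Cdc6 was the lowest of the 41 in both groups (1.99 and 1.56), below Cdc25c, Ccne1 and Tyms. Cenpe moved from place 24 of 41 in Control to place 13 in IMQNP and Cdt1 from 13 to 20, neither of them with a called change.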

How the data were processed

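RNA of 8 tumors, 4 per group, was analysed, with no statement of sequencing batches. The authors deposited whole-number counts of reads per gene, the input of every test here. They also deposited a table of signal values, which are the counts of a tumor over its DESeq2 size factor, used to find the members by symbol and in 1 alternative. In it 25 symbols read as dates, so genes were joined by Ensembl identifier, all 55536 of which are in GENCODE M21 (GRCm38). The paper's methods name TopHat and HTSeq, the submitters' processing notes Trimmomatic 0.38, HISAT2 2.1.0 and featureCounts 2.0.0, so the aligner and counter are uncertain, and whether counting used strand is not given in the sources used here. The paper's methods give a younger age of the mice than the labels, and the dose is from those methods.

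Counts were analysed in R 4.3.3 with edgeR 4.0.16 (TMM, default low-count filter, quasi-likelihood test, Benjamini-Hochberg adjustment over 15998 genes) and DESeq2 1.42.0 as an alternative, checked on simulated counts. Tables and figures were made in Python 3.11.15 with pandas 2.3.3 and matplotlib 3.10.9. CPM used the TMM factors, and log2 CPM a prior count of 2. Standard errors and 95% intervals came from the edgeR fit, with its moderated degrees of freedom. Fold changes are log2 of IMQNP over Control. Intervals and the floor of 3 counts reflect counting and tumor spread only.

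The members and lists were chosen with earlier results of these data known. Genes given tumor by tumor were Mki67, Top2a, Ccnd1, Ccne1, the 4 members of each group with the smallest p, and of each further list the called genes or else the 2 with the smallest p. Sequence shared with other genes was measured as overlapping exon bases and as 50-base words. Replicate pairs correlated at 0.912 to 0.984 on log2 CPM, and all 12 pairs differed by more than sampling noise. The groups share the numbers 1, 3 and 4, which do not mark shared animals, so the reported fit has no such term and a replicate term is an alternative. P-values measure the spread between tumors of different mice. Alternatives were other scalings, filters, DESeq2, a fold limit, a replicate term, single tumors left out and, added after the data were seen, a hepatocyte term.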

Additional observations from a re-analysis of the deposited data

Results flagged for a closer look

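In 7 of the 82 groups of 4 tumors looked at for single members, 1 tumor stood apart from the other 3. About 1 in 20 groups, or 4.1, would do so by chance if the groups were independent. The members share tumors and vary together, so the 7 are not independent observations. Among the Control tumors, Mcm5 was at 29.6 CPM in Control 3 against 44.1 to 46.9 CPM in the others, Bub1b at 44.5 CPM in Control 1 against 30.3 to 32.3 CPM, and Ccna2 at 45.6 CPM in Control 5 against 77.1 to 82.2 CPM. Among the IMQNP tumors, Mcm6 was at 161 CPM in IMQNP 1 against 104 to 112 CPM. IMQNP 2 was low for Cdc6, at 5.24 CPM against 8.70 to 9.37 CPM, for Cdk1, at 53.2 CPM against 66.8 to 68.1 CPM, and for Cenpf, at 42.1 CPM against 65.3 to 68.0 CPM. The mean over all 41 members was 5.67 log2 CPM in Control 1 against 5.39 to 5.41 in the other Control tumors.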

How the results depend on the processing

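No member was called under any of the 16 alternatives, and the list medians and the difference between mitosis and replication genes kept their direction in all of theirs. The log2 fold change of Top2a was -0.011 with upper-quartile normalization and -0.0095 to 0.15 with single tumors left out, and that of Ccnd1 0.014 with the replicate block and -0.22 to 0.094 with single tumors left out. Over all genes, 394 were called higher and 35 lower. The counts were 712 and 170 with DESeq2, 764 and 512 with the hepatocyte term, and 519 and 302 with the replicate block. Without a filter 64 were called lower, and with single tumors left out 198 to 398 were called higher and 8 to 41 lower. Leaving out Control 1, Control 3, Control 4 or IMQNP 4 moved both counts by over 1.5 times, and leaving out IMQNP 3 that of lower genes (to 10). The replicate block brought the replication median from -0.31 to -0.17 and the mitosis median from -0.09 to -0.02, and upper-quartile scaling brought the latter to -0.16. With the block 0 members were called, with a smallest adjusted p of 0.135 in edgeR. Deviations of tumors with the same number correlated at 0.29, -0.27 and -0.32, and no tumor correlated best with its own number, so the numbers were not taken as pairs. Cdkn1a was called with that block (adjusted p 0.0272) and with the hepatocyte term (0.0128), as was Mcm10 with the latter (0.0351). Upper-quartile scaling moved the median log2 fold change of all genes from -0.03 to -0.10. The cause of these shifts was not tested. With 4 tumors a group, changes smaller than the intervals given could not be detected. The intervals are not adjusted for the number of genes tested, so larger changes could also be missed. Those of Gins2, Tk1 and Cenpe excluded 0 without a call.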
